A study of Mus musculus with 12 samples.

Results

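Transcripts of 31 genes of glycolysis and of the response to low oxygen were followed in mouse spermatocytes and in the GC2 cell line with and without depletion of Phb, the gene of prohibitin. The 31 are named glucose and lactate transporters, glycolytic enzymes and their regulators, oxygen sensors and genes induced in hypoxia. They were taken by gene name, 31 of 39985 names in all, and where a name stood on several rows the row with the highest mean level was used. All 31 were measured in spermatocytes and 30 in GC2, where Fbp1 was not analysed.

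The 12 libraries form 4 groups of 3: GC2 control, GC2 with PHB knockdown, control spermatocytes, and spermatocytes from Phb conditional knock-out mice. The GC2 groups share culture of the ATCC line in serum-containing medium, and the labels do not say by what agent the knockdown was achieved. Both spermatocyte groups were sorted by flow from enzyme-digested seminiferous tubules after Hoechst staining, and the labels name neither the Cre driver, nor the alleles of the control mice, nor the age of the animals. The submitters call the libraries biological replicates without naming the culture or animal behind each, so a p-value covers only the spread among these samples, and that spread may be technical.

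Glycolysis splits glucose into pyruvate in the cytosol, and mammals carry several isoforms of most of its enzymes, each with its own tissue pattern. In the testis, Sertoli cells take up glucose and pass lactate to meiotic germ cells, while later germ cells turn on germ-cell isoforms such as Ldhc, Pgk2 and Gapdhs. When oxygen is short, prolyl hydroxylases (Egln1, Egln3) stop marking the transcription factor subunit HIF-1α (Hif1a) for destruction, and the factor then induces many glycolytic genes together with Vegfa, Bnip3, Car9 and others. HIF-1α is controlled mostly at the protein level, which these transcript data do not show.

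The values are FPKM, in which fragments are set relative to transcript length and library total, so levels of different genes can be set side by side within a kind of sample. Levels were not compared between GC2 and spermatocytes, which were deposited on different row sets. Only the changes were, matched by gene name. A gene was called changed at a Benjamini-Hochberg adjusted p under 0.05 in limma on log2(FPKM + 1), two-sided, and every fold change below is on that scale, which understates changes of low genes. In GC2, Phb was 56.62, 53.99 and 52.36 FPKM in control and 22.66, 18.37 and 19.02 in knockdown, a log2 fold change of -1.40 (SE 0.090, limma adjusted p = 0.00062). In spermatocytes it was 12.6, 13.35 and 13.86 FPKM in control and 11.81, 11.33 and 11.53 in knockout, a log2 fold change of -0.18 (limma adjusted p = 0.00741) whose call was lost with median centring (-0.024, adjusted p = 0.630) and with quantile normalization (-0.070, adjusted p = 0.169). The knockout libraries thus kept most of the control level of Phb transcript.

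Markers of other cells moved in the spermatocyte comparison. All 14 pachytene and diplotene markers fell, from a summed level of 3264.4 to 3321.77 FPKM in control to 243.42 to 248.19 in knockout, and 7 of them were under 1 FPKM in knockout. All 12 spermatid markers fell, from 891.04 to 931.64 FPKM to 10.31 to 12.99, and 7 of them had a knockout mean under 1 FPKM. Markers under 1 FPKM in every knockout library passed the filter through control alone and so had to differ. Of all tested spermatocyte rows, 40.9% were called higher and 38.5% lower. Of 11 tested Sertoli cell markers 10 rose, from a sum of 779.96 to 870.45 FPKM to 3266.89 to 3451.36. All 7 tested Leydig cell markers rose, from 29.74 to 31.24 FPKM to 228.55 to 233.16. All 5 erythrocyte markers rose, from 95.48 to 106.29 FPKM to 183.77 to 188.72, with Hba-a1 and Hba-a2 on a shared row that was summed once. Of 9 tested peritubular myoid and endothelial markers 8 rose and 1 fell, of 7 macrophage and immune markers 6 rose and 1 fell, and of 10 spermatogonial markers 2 rose and 6 fell. The highest gene of a list in control, by mean FPKM, was Ldhc (1428) for pachytene and diplotene cells, Tnp1 (211) for spermatids, Uchl1 (99.6) for spermatogonia, Clu (296) for Sertoli cells, Nr5a1 (10.6) for Leydig cells, Actg2 (11.3) for myoid and endothelial cells, Aif1 (12.1) for immune cells and Hbb-bs (42.8) for erythrocytes. Mitochondrially encoded rows took 12.2% to 13.6% of FPKM in control and 17.1% to 19.5% in knockout. The part of these shifts in the values below was not tested, and in bulk RNA fewer cells of a type and less RNA per cell cannot be told apart. In GC2, 5 of the 14 pachytene and diplotene markers and 8 of the 12 spermatid markers were measured, and all were under 1 FPKM in control. In knockdown the same held but for Hspa2, a heat shock gene of meiotic cells, listed at 0 in library 1 and at 4.64 and 4.68 FPKM in the others. The measured markers of meiotic cells were thus at or near 0 in control libraries labelled as a spermatocyte line. Markers also moved in GC2, and their part in the GC2 results was not tested. Of 5 tested Sertoli markers 3 rose (Clu, Wt1 and Inhba), with a summed level of 205.46 to 215.27 FPKM in control and 212.43 to 215.37 in knockdown. The spermatogonial marker Uchl1 rose from 28.69 to 33.86 FPKM to 46.5 to 58.88. The smooth muscle actin gene Acta2, the highest of the myoid and endothelial list, fell from 88.9 to 97.85 FPKM to 16.15 to 17.58, the only call of 2 tested. Of 3 tested immune markers only Cd74 was called, falling from 1.28 to 1.51 FPKM to 0.04 to 0.25. Cd74 passed the filter through control alone and so had to differ. Cd68 and Cd14 had log2 fold changes of 0.27 and 0.18 and were not called. Of all tested GC2 rows, 10.7% were called higher and 13.9% lower.

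**Figure D1:**
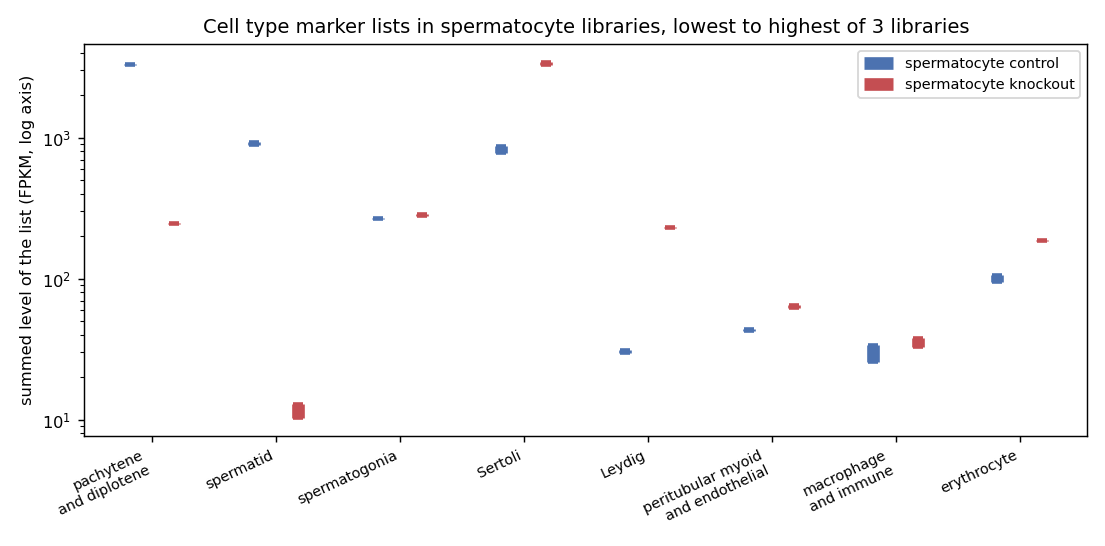
Summed level of each cell type marker list in the spermatocyte libraries, on a log axis in FPKM. Each bar runs from the lowest to the highest of 3 libraries. Pachytene, diplotene and spermatid sums were lower in knockout, and Sertoli and Leydig sums higher.

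The upstream stretches of 7 of these genes are shown for later reference. They hold both isoform pairs on which the shares below turn, Pgam1 with Pgam2 and Hk1 with Hk2, and 3 genes that rose in knockout spermatocytes. Each is the 250 bases before a RefSeq transcription start on GRCm38.p6, written 5′ to 3′ on the gene's strand. Capitals mark the core letters ACGTG and GCGTG that hypoxia-inducible factors recognise, on either strand (CACGT and CACGC on the other), and the palindrome CACGTG counts as 1 site. Pgam1, which encodes the broadly expressed phosphoglycerate mutase, is at chr19:41911621-41911870, plus strand, with 3 sites.
Pgam1: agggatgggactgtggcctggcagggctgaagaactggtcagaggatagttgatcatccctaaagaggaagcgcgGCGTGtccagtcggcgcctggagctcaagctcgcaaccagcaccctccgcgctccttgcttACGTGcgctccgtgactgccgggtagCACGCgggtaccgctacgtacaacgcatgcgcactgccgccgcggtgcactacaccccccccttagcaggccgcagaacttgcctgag
Pgam2, which encodes the muscle and germ-cell form of the same enzyme, is at chr11:5803797-5804046, minus strand, with 0 sites.
Pgam2: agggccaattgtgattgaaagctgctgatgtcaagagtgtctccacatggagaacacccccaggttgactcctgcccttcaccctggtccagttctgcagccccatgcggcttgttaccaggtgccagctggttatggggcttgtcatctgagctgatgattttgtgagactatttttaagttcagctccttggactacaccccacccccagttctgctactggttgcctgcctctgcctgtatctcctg
Hk1, the gene of a hexokinase with germ-cell transcripts of its own, is shown at the more upstream of its RefSeq starts, chr10:62379909-62380158, minus strand, with 0 sites. The window at its other start, chr10:62340372-62340671, held 5 and is not printed.
Hk1: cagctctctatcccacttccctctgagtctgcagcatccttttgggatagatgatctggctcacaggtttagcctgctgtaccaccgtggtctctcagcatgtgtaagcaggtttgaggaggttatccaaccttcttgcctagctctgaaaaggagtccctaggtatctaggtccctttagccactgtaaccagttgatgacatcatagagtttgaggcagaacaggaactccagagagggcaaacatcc
Hk2, the gene of an inducible hexokinase, is at chr6:82774455-82774704, minus strand, with 2 sites.
Hk2: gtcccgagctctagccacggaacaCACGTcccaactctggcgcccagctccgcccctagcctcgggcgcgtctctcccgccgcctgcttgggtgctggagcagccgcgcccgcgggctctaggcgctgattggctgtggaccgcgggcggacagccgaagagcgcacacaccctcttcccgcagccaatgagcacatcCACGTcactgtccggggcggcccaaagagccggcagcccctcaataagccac
Bnip3, the gene of a mitochondrial outer membrane protein that triggers mitophagy in hypoxia, is at chr7:138909507-138909756, minus strand, with 4 sites.
Bnip3: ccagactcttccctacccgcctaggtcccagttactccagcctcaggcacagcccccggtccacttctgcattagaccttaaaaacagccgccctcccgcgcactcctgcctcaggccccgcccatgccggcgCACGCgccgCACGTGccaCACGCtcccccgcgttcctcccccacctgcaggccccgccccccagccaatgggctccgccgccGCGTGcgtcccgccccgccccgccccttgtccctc
Pdk1, the gene of a kinase that shuts off pyruvate dehydrogenase, is shown at chr2:71872974-71873223, plus strand, with 1 site, while the window at its other start, chr2:71874654-71874953, held 0.
Pdk1: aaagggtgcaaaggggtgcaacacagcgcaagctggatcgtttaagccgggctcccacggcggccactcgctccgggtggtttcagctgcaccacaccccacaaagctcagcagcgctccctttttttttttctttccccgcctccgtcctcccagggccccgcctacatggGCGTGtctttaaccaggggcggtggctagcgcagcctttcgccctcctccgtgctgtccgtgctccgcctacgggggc
Pfkfb3, the gene of an enzyme that makes the activator of phosphofructokinase, is shown at its second RefSeq start, chr2:11502091-11502340, minus strand, with 2 sites, while the window at its first start held 1.
Pfkfb3: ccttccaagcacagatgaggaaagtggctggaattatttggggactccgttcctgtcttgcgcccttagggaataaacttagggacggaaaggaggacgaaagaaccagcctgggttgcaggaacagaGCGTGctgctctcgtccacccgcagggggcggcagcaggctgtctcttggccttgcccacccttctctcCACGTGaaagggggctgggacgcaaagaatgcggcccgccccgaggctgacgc

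RefSeq windows of 300 bases, from 250 before to 50 after a start, were found for 29 of the 31 genes, 42 windows in all. At least 1 site stood in 32 of them, or 76.2%, against 43.8% of all 32851 windows of the table. The windows of the 31 genes were also richer in G and C, 61.0% against 53.8%, and the part of base composition in the site count was not tested. Genes that rose in knockout spermatocytes had a site in 21 of 25 windows (84%, G and C 64.9%), and genes that fell in 7 of 12 (58.3%, G and C 55.1%). Windows of 1 gene can overlap and were counted apart, 1.45 per gene for the 31 against 1.22 over the table. By gene, a site stood in 17 of 17 with a window that rose and 5 of 8 that fell, against 12628 of 27025 in the table. For Hk1, Pfkfb3, Pdk1, Aldoa, Aldoc, Pfkm, Pkm and Vegfa the number of sites depends on the start taken. A match of 5 letters is a description of the sequence and not a bound site.

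In knockout spermatocytes most of the 31 genes changed, in both directions. Of 30 tested genes, 18 rose and 9 fell, where 79.4% of all 15957 tested rows were called, 40.9% as higher and 38.5% as lower. Rises of at least 2-fold were called for 12 of the 30, against 11.6% of all rows, and falls of at least 2-fold for 7, against 21.6%. The median log2 fold change was 0.81, against 0.047 over all tested rows. Control and knockout libraries did not overlap for 27 of the 30, against 81.8% of all rows. In all, 90% of the 30 were called. Gpi1, Aldoc and Egln3 were not called, and Car9, at 0.24 FPKM or less in every library, was below the level tested. Fbp1 passed the filter on low values through the control libraries alone and so had to differ. It is also among the 27 without overlap. Without Fbp1, 8 of 29 fell, 6 of them by at least 2-fold, and 26 were called, with a median log2 fold change of 0.85.

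**Figure D2:**
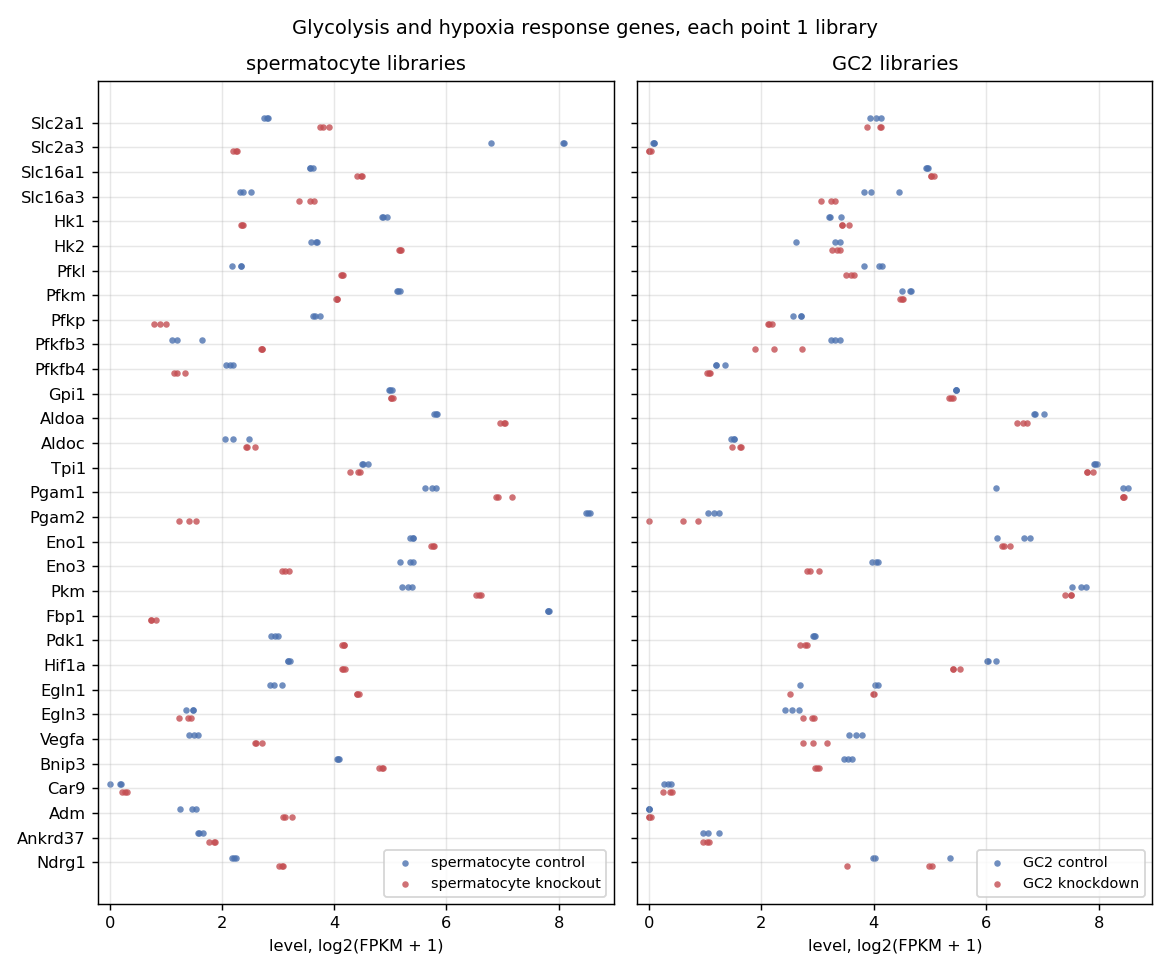
Level of each of the 31 genes in every library, as log2(FPKM + 1), with spermatocytes on the left and GC2 on the right. Each point is 1 library, control in blue and Phb-depleted in red. The widest separations are those of Pgam2, Fbp1 and Slc2a3 in spermatocytes.

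The glucose transporters changed in opposite directions in spermatocytes. Slc2a3, the gene of the high-affinity transporter GLUT3 of neurons and germ cells, was 110.54, 269.61 and 270.91 FPKM in control and 3.79, 3.58 and 3.77 in knockout. Its log2 fold change was -5.42 (SE 0.35, limma adjusted p = 1.83e-05), and -5.85 without control library 1, which stood below the other two. Slc2a1, the gene of the basal transporter GLUT1 that is prominent in Sertoli cells, was 5.71, 6.08 and 5.95 FPKM in control and 13.02, 14.07 and 12.41 in knockout. All knockout libraries were above all control libraries, with a log2 fold change of 1.03 (SE 0.053, limma adjusted p = 5.78e-06). Both monocarboxylate carriers rose as well. Slc16a1, the gene of the lactate carrier MCT1, was 11.38, 10.85 and 10.9 FPKM in control and 21.46, 20.17 and 21.28 in knockout (log2 fold change 0.87). Slc16a3, the gene of the lactate exporter MCT4, was 4.22, 4 and 4.74 FPKM in control and 10.8, 11.43 and 9.3 in knockout (log2 fold change 1.11).

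The hexokinases, which trap glucose in the cell as glucose 6-phosphate, changed places. Hk1 was 29.6, 28.13 and 27.86 FPKM in control spermatocytes and 4.14, 4.21 and 4.06 in knockout, a log2 fold change of -2.52 (SE 0.036, limma adjusted p = 2.83e-08). Hk2 was 11.71, 11.89 and 11.04 FPKM in control and 35.09, 35.38 and 34.64 in knockout, a log2 fold change of 1.52 (SE 0.034, limma adjusted p = 1.60e-07). Hk1 was the higher of both in every control library and the lower in every knockout library. Its share of the summed FPKM of Hk1 and Hk2 was 71.2% ± 0.778 (SD, n = 3) in control and 10.6% ± 0.0717 (SD, n = 3) in knockout. The log2 ratio of Hk1 to Hk2 changed by -4.05, with an exact two-sided permutation p of 0.1, the smallest that 3 against 3 can give.

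Phosphofructokinase, the main control point of glycolysis, is built from liver, muscle and platelet subunits, and the mix of their transcripts changed. Pfkl, the liver subunit gene, was 3.52, 4.08 and 4.04 FPKM in control and 16.94, 16.68 and 16.41 in knockout (log2 fold change 1.86, SE 0.055, limma adjusted p = 4.69e-07). Pfkp, the platelet subunit gene, was 11.61, 12.35 and 11.25 FPKM in control and 1.01, 0.87 and 0.72 in knockout (log2 fold change -2.77). Pfkm, the muscle subunit gene, was on a row that also names Gm26513, and that row fell from 33.54 to 34.99 FPKM in control to 15.27 to 15.59 in knockout (log2 fold change -1.10). Pfkl thus went from the lowest of the 3 subunits to the highest, from 7.79% ± 0.664 (SD, n = 3) of their summed FPKM to 50.5% ± 0.389 (SD, n = 3). Pfkp went from 23.6% to 2.62%, and Pfkm from 68.7% to 46.8%. The bifunctional enzymes that set the level of the activator fructose 2,6-bisphosphate also moved apart. Pfkfb3 was 2.11, 1.3 and 1.17 FPKM in control and 5.59, 5.46 and 5.59 in knockout (log2 fold change 1.39), while Pfkfb4 fell from 3.2 to 3.6 FPKM to 1.2 to 1.53 (log2 fold change -0.91).

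Among the enzymes that reshape and split the sugar, Aldoa, the aldolase gene of muscle and most other cells, was 55.03, 54.08 and 55.99 FPKM in control and 130.28, 129.21 and 122.64 in knockout. Its log2 fold change was 1.20 (SE 0.031, limma adjusted p = 2.90e-07). A second row named Aldoa, annotated in GENCODE as a separate record just upstream (chromosome 7, 126800790 to 126809108, minus strand, GRCm38), went the other way, with 14.65, 14.84 and 15.51 FPKM in control and 0.92, 0.61 and 0.89 in knockout. Gpi1, the glucose 6-phosphate isomerase gene, on a row shared with Gm12762, stayed between 30.46 and 32.14 FPKM in all 6 libraries. Aldoc, the aldolase gene of brain, ranged from 3.17 to 4.6 FPKM in control and 4.41 to 5 in knockout. Tpi1, the triose-phosphate isomerase gene, on a row shared with Usp5, was 21.51 to 23.22 FPKM in control and 18.42 to 20.87 in knockout (log2 fold change -0.15, limma adjusted p = 0.0419). That call was lost in 11 of 15 alternative analyses, and the sign turned with median centring (0.0060).

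In lower glycolysis the phosphoglycerate mutases changed places. Pgam2 was 373.45, 368.27 and 358.99 FPKM in control spermatocytes and 1.36, 1.9 and 1.67 in knockout, a log2 fold change of -7.13 (SE 0.076, limma adjusted p = 1.29e-08). Pgam1 was 48.02, 52.81 and 55.49 FPKM in control and 119.71, 117.48 and 142.9 in knockout, a log2 fold change of 1.26 (SE 0.091, limma adjusted p = 2.91e-05). Pgam2 was the main transcript of the enzyme in every control library and the minor one in every knockout library. Its share of the summed FPKM of both genes was 87.6% ± 1.001 (SD, n = 3) in control and 1.29% ± 0.262 (SD, n = 3) in knockout. The log2 ratio of Pgam1 to Pgam2 rose by 8.39, again with the smallest exact permutation p possible, 0.1. The processed pseudogene Pgam1-ps2 had a row of its own at 10.87 to 12.6 FPKM in control and 26.74 to 28.12 in knockout, and the labels do not say how reads of such copies were divided, so the level of Pgam1 is uncertain to that extent.

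The enolase shares also shifted, but neither gene led clearly in control, where Eno1 held 50.7%, 54.2% and 48.8% of the pair. Eno3, the muscle enolase gene, was 39.9, 34.87 and 41.53 FPKM in control and 7.4, 8.2 and 7.73 in knockout (log2 fold change -2.18, SE 0.073, limma adjusted p = 8.31e-07). Eno1, the enolase gene of most tissues, was 41.08, 41.31 and 39.61 FPKM in control and 53.64, 53.32 and 51.95 in knockout (log2 fold change 0.37). The share of Eno3 in the summed FPKM of Eno1 and Eno3 alone fell from 48.7% to 12.8%. Eno1 has a near-identical retrogene, Eno1b, whose row held 12.79 to 15.97 FPKM in control and 1.75 to 12.97 in knockout. Summed over Eno1 and Eno1b the levels were 57.05, 54.9 and 52.4 FPKM in control and 64.84, 66.29 and 53.7 in knockout, so the groups overlapped and the rise of Eno1 is uncertain. Pkm, the pyruvate kinase gene, on a row shared with Gm49759, was 40.71, 38.58 and 35.81 FPKM in control and 94.93, 96.59 and 91.38 in knockout (log2 fold change 1.28).

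**Figure D3:**
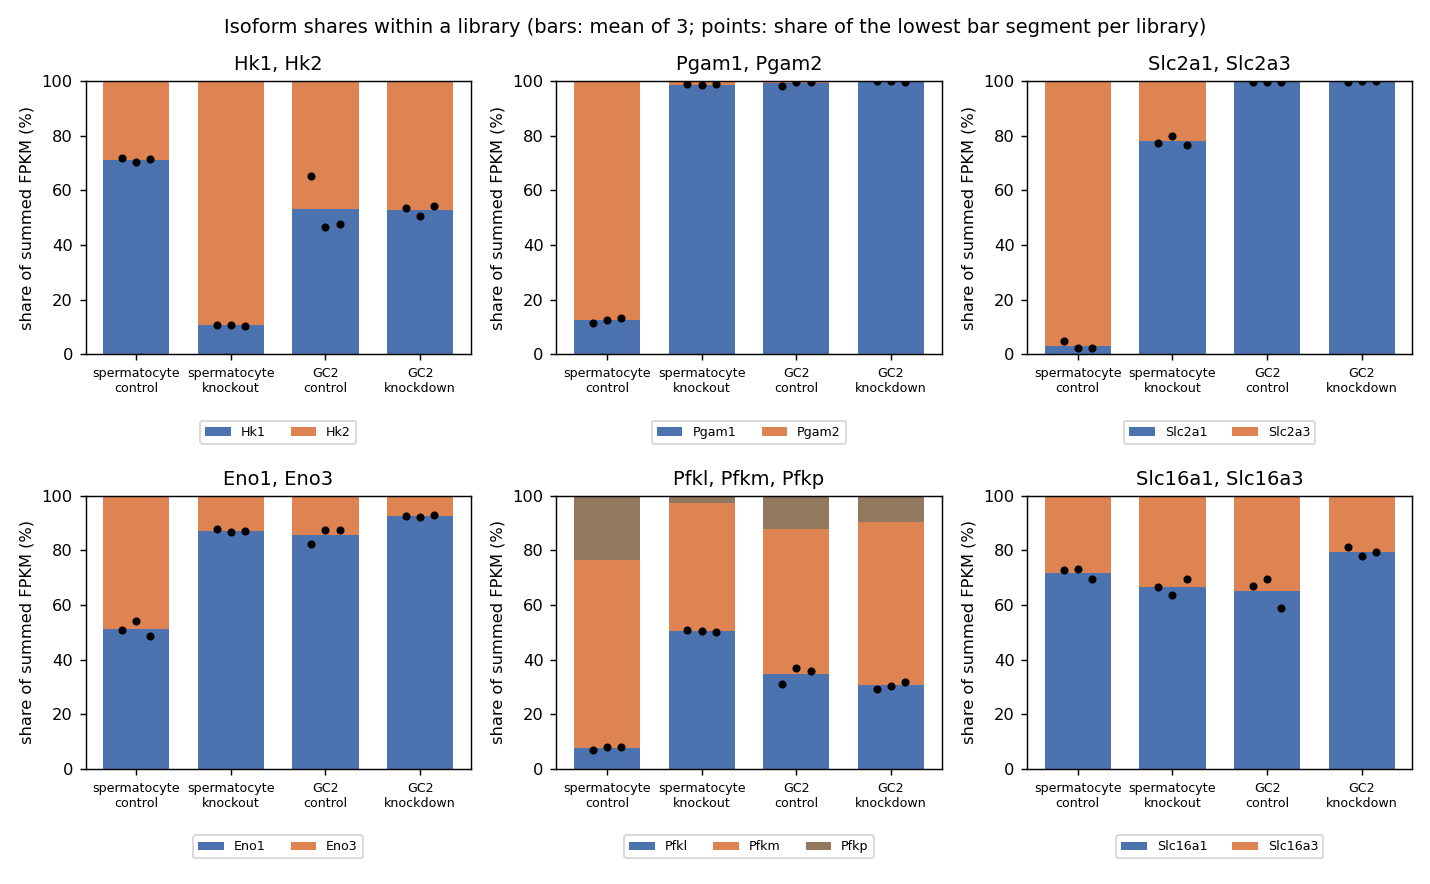
Share of each isoform in the summed FPKM of its family, in percent, for 6 families and 4 groups. Bars are means of 3 libraries and points are the share of the lowest segment in each library. In spermatocytes the lead passed from Hk1 to Hk2, from Pgam2 to Pgam1 and from Slc2a3 to Slc2a1.

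Fbp1 and Pdk1 act on either side of the glycolytic flux. Fbp1, the gene of the fructose bisphosphatase that runs the phosphofructokinase step backwards, was 221.91, 224.97 and 222.82 FPKM in control and 0.66, 0.78 and 0.66 in knockout, a log2 fold change of -7.04 that is given as a description, since the gene was tested through its control level alone. By the ratio of mean FPKM, knockout over control, Fbp1 (0.00314) stood below Pgam2 (0.00448), the reverse of their order on the log2(FPKM + 1) scale. Pdk1 was 6.75, 6.29 and 6.99 FPKM in control and 17.07, 17 and 16.68 in knockout, a log2 fold change of 1.22 (SE 0.043, limma adjusted p = 1.00e-06).

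The oxygen sensors and the hypoxia targets mostly rose in knockout spermatocytes. Hif1a was on a row that also names Snapc1, at 7.99, 7.99 and 8.28 FPKM in control and 16.59, 16.75 and 17.25 in knockout (log2 fold change 0.98, SE 0.032, limma adjusted p = 7.59e-07). Egln1, the main prolyl hydroxylase gene, was 7.38, 6.23 and 6.65 FPKM in control and 20.1, 20.18 and 20.74 in knockout (log2 fold change 1.46). Egln3, a hydroxylase gene that is itself induced in hypoxia, was 1.58 to 1.81 FPKM in control and 1.36 to 1.74 in knockout (log2 fold change -0.082, limma adjusted p = 0.352), and the sign turned with quantile normalization (0.31, adjusted p = 0.0113) and median centring (0.079). All 5 tested target genes rose, where 40.9% of all rows were called higher. Adm, the gene of the vasodilator adrenomedullin, was 1.89, 1.37 and 1.76 FPKM in control and 7.76, 7.51 and 8.55 in knockout (log2 fold change 1.74). Vegfa, the gene of the main angiogenic growth factor, was 1.83, 1.68 and 1.98 FPKM in control and 5.11, 5.6 and 5.03 in knockout (log2 fold change 1.14). The other 3 rose by less. Bnip3 was 15.75, 16 and 15.52 FPKM in control and 27.96, 28.31 and 26.77 in knockout (log2 fold change 0.78). Ndrg1, a stress-response gene induced by hypoxia and differentiation, rose from 3.51 to 3.78 FPKM to 7.05 to 7.55 (log2 fold change 0.85). Ankrd37, the gene of an ankyrin repeat protein induced in hypoxia, rose from 1.99 to 2.18 FPKM to 2.41 to 2.68 (log2 fold change 0.23).

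**Figure D4:**
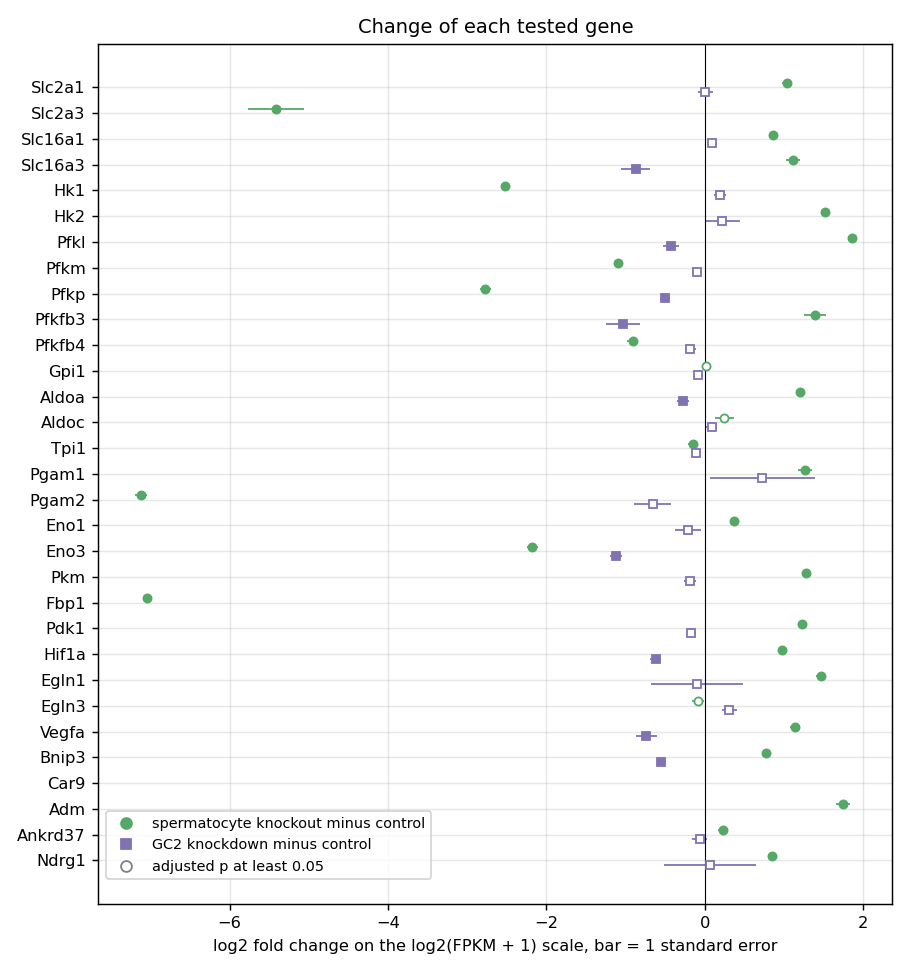
Log2 fold change of each tested gene on the log2(FPKM + 1) scale, with bars of 1 standard error. Circles are knockout minus control spermatocytes and squares are knockdown minus control GC2, filled where the adjusted p is under 0.05. Without rescaling no filled GC2 square lies to the right of 0, while spermatocyte circles lie on both sides.

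In GC2 cells the changes were smaller and all calls were falls. Of 27 tested genes 9 fell and 0 rose, where 24.5% of all 10791 tested rows were called, 13.9% as lower and 10.7% as higher. By limma's unadjusted p under 0.05 there were 13 lower and 1 higher, Egln3, and no second tool was run. With quantile normalization 1 gene was called higher (Egln3), and with FPKM rescaled to equal library totals without mitochondrial rows 2 were (Egln3 and Slc16a1). Falls of at least 2-fold were called for 2 genes, against 2.21% of all rows, and rises of at least 2-fold for 0, against 1.3%. The median log2 fold change was -0.17, against -0.038 over all tested rows. The groups did not overlap for 18 of the 27, against 44.9% of all rows. Pgam2 is among these 18 and among the 13 lower by unadjusted p. It passed the filter through the control libraries alone, so its groups could not overlap. Without Pgam2, 9 of 26 fell and the median log2 fold change was -0.14. Slc2a3, Car9 and Adm were below the level tested, at 0.34 FPKM or less in every GC2 library. The count of falls was 4 without knockdown library 2 and 6 or 7 without any other library.

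Most of the called falls in GC2 were in the glycolytic branch, lactate export included, which also held most of the tested genes. Eno3 was 15.46, 15.84 and 14.6 FPKM in control and 6.28, 7.16 and 6.06 in knockdown (log2 fold change -1.12, SE 0.074, limma adjusted p = 0.000675). Pfkfb3 was 8.46, 8.88 and 9.5 FPKM in control and 2.71, 3.68 and 5.58 in knockdown (log2 fold change -1.03, SE 0.22, limma adjusted p = 0.0234), and the call was lost without any 1 control library or knockdown library 2 (adjusted p 0.0609 to 0.0758). Pfkp was 4.88, 5.5 and 5.53 FPKM in control and 3.56, 3.33 and 3.41 in knockdown (log2 fold change -0.51, limma adjusted p = 0.00509). Eno3 and Pfkp kept their calls in every alternative analysis that tested them, which was not so for the next 3. Pfkl was 13.13, 15.97 and 16.61 FPKM in control and 10.34, 11.12 and 11.55 in knockdown (log2 fold change -0.43, limma adjusted p = 0.0332), and lost its call in 7 of 15 alternatives. Aldoa was 115.37, 114.32 and 129.13 FPKM in control and 104.52, 98.96 and 92.67 in knockdown (log2 fold change -0.27, limma adjusted p = 0.0465), and lost it in 13 of 15. Slc16a3 was 14.52, 13.17 and 20.89 FPKM in control and 7.36, 8.93 and 8.49 in knockdown (log2 fold change -0.87, limma adjusted p = 0.0236), and lost it in 5 of 15, the replicate block among them (adjusted p = 0.0538).

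The other 3 falls in GC2 were in the hypoxia branch, among 3 tested oxygen sensing genes (1 lower) and 4 tested hypoxia targets (2 lower). Hif1a was 63.5, 71.06 and 64.32 FPKM in control and 45.33, 41.65 and 41.18 in knockdown, with no overlap and a log2 fold change of -0.62 (SE 0.066, limma adjusted p = 0.00304). Bnip3 was 10.57, 10.14 and 11.3 FPKM in control and 6.8, 7.16 and 6.96 in knockdown (log2 fold change -0.55, SE 0.057, limma adjusted p = 0.00281). Vegfa was 12.76, 10.81 and 11.89 FPKM in control and 8.02, 6.52 and 5.66 in knockdown (log2 fold change -0.74, limma adjusted p = 0.0140), and was just past the threshold without knockdown library 2 (adjusted p = 0.0515). The calls of Hif1a and Bnip3 held in every alternative analysis.

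Some GC2 values were decided by single libraries. Pgam1 was 70.56, 341.2 and 366.74 FPKM in control and 345.34, 343.06 and 341.64 in knockdown, so control library 1 stood at a small part of the other five. The log2 fold change of 0.73 (limma adjusted p = 0.486) became -0.043 without that library. Egln1 was 15.31, 5.46 and 15.83 FPKM in control and 4.71, 14.99 and 14.84 in knockdown, with 1 low library in each group. Ndrg1 was 15.21, 14.76 and 39.91 FPKM in control and 10.55, 30.55 and 31.78 in knockdown, split into low and high libraries in both groups. Hk2 was 5.14, 9.53 and 8.96 FPKM in control and 8.55, 9.54 and 9.12 in knockdown. In Hk2, control library 1 was again the lowest. Among rows with a mean of at least 5 FPKM, a library lay at least 2-fold below or above the middle one in 8.88% of GC2 control and 8.69% of knockdown rows, Pgam1, Egln1 and Ndrg1 among them, against 1.47% and 2.02% in spermatocytes. No direction was read for these 4 genes in GC2.

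**Figure D5:**
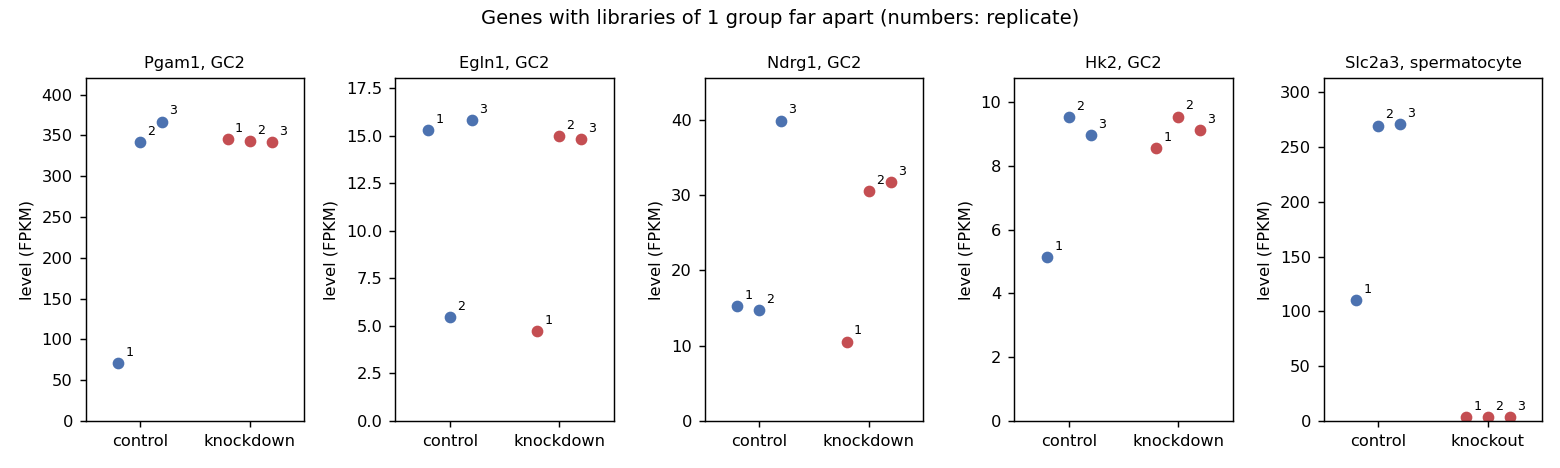
Level in FPKM, on linear axes from 0, of 5 genes with a library far from the others of its group. Numbers by the points are replicate numbers. Control library 1 of GC2 is low for Pgam1 and Hk2, and control library 1 of spermatocytes is low for Slc2a3.

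The remaining tested genes were not called in GC2. Hk1 was 9.68, 8.36 and 8.2 FPKM in control and 9.82, 9.82 and 10.74 in knockdown (log2 fold change 0.19, limma adjusted p = 0.145). The share of Hk1 in the summed FPKM of Hk1 and Hk2 was 53.3% ± 10.4 (SD, n = 3) in control and 52.8% ± 1.79 (SD, n = 3) in knockdown, a difference in the log2 ratio of -0.027 with an exact permutation p of 1. Pgam1 made up 98.3% to 99.7% of the summed FPKM of Pgam1 and Pgam2 in control and 99.8% to 100% in knockdown. Pgam2 rested on an assembled transcript at 1.23, 1.08 and 1.38 FPKM in control and 0.53 and 0.83 in 2 knockdown libraries, was listed at 0 in the other, and passed the filter through the control libraries alone. The log2 ratio of Pgam1 to Pgam2 was 1.39 higher in knockdown and 0.62 higher without control library 1. No direction was read from it, since it rests on Pgam2 near 1 FPKM and on Pgam1. Eno1 was 72.1, 108.82 and 100.64 FPKM in control and 76.67, 84.25 and 78.4 in knockdown, not called with all libraries (limma adjusted p = 0.408) and called lower without control library 1 (adjusted p = 0.0262). Its retrogene Eno1b held 215.91, 222.73 and 223.82 FPKM in control and 180.11, 198.93 and 189.09 in knockdown, more than Eno1 itself, so reads of the pair cannot be assigned with certainty. The abundant enzymes Tpi1 (239.89 to 249.89 FPKM in control, 220.43 to 237.01 in knockdown), Pkm (181.71 to 216.09 and 167.47 to 180.58, on a row shared with RP23-320D23.6) and Gpi1 (43 to 43.13 and 39.57 to 41.65) had non-overlapping groups without passing the test. Pdk1 was 6.53 to 6.73 FPKM in control and 5.45 to 6.06 in knockdown (limma adjusted p = 0.0799), and Egln3 was 4.38 to 5.36 and 5.68 to 6.65 (limma adjusted p = 0.0630). Slc2a1, Slc16a1, Pfkm, Pfkfb4, Aldoc and Ankrd37 had log2 fold changes between -0.18 and 0.094.

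The change in spermatocytes was then tested against the change in GC2 in 1 limma fit over all 12 libraries. It differed for 21 of 27 genes, where 60.9% of 9666 genes tested in both differed, and for 20 of 26 without Pgam2, which was tested in GC2 through its control level alone. For 7 genes the signs were opposite and both changes were called: Aldoa, Bnip3, Hif1a, Pfkfb3, Pfkl, Slc16a3 and Vegfa fell in GC2 and rose in spermatocytes. Of the 9666 genes, 7.28% were called in these directions and 2.52% in the reverse ones. The knockout minus knockdown difference of these 7 ran from 1.32 for Bnip3 to 2.43 for Pfkfb3 on the log2 scale and was called in every alternative analysis that tested it, although the GC2 falls of Aldoa, Pfkl, Slc16a3, Pfkfb3 and Vegfa were each lost in some. Eno3 and Pfkp fell in both, by 1.06 and 2.27 more on the log2 scale in spermatocytes. Of the other 18 genes, Hk1 differed by -2.72, Hk2 by 1.30 and Pgam2 by -6.47. Aldoc, Egln1, Gpi1, Ndrg1, Pgam1 and Tpi1 were not called, with Egln1 at an adjusted p of 0.0509, and Pgam1 was called without GC2 control library 1 (adjusted p = 1.71e-05). The source of the cells, the means of depletion and the size of the Phb change all differ between both contrasts and cannot be told apart. For Hif1a, Pfkm, Pkm, Tpi1 and Gpi1 the row also named other genes in spermatocytes than in GC2, so unlike rows were set side by side.

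Beyond the 31, other genes of both pathways were counted from a list of 79 names. In spermatocytes 62 were tested, 35 rose and 20 fell, with a median log2 fold change of 0.33, where 40.9% of all rows were called higher and 38.5% lower. The glycolytic isoforms split, 12 higher and 15 lower of 29, while of 33 hypoxia response genes 23 were higher and 5 lower. These 5, named after their values were seen, were Egln2 (log2 fold change -1.81), Hilpda (-1.25), Kdm3a (-0.81), Fam162a (-0.46) and Hif1an (-0.15). The glycolytic falls held the germ-cell isoforms. Ldhc, the lactate dehydrogenase gene of germ cells, was 1416.14, 1429.77 and 1436.8 FPKM in control and 6.05, 4.79 and 5.38 in knockout (log2 fold change -7.81). Ldhc and Pgk2 are also on the pachytene and diplotene marker list, and Gapdhs on the spermatid list, so their falls are part of the marker result above. Pgk2, the germ-cell phosphoglycerate kinase gene, fell from 65.49 to 68.9 FPKM to 0.12 to 0.38. Gapdhs, the gene of the sperm form of glyceraldehyde 3-phosphate dehydrogenase, fell from 54.65 to 60.13 FPKM to 0.25 to 0.57. Aldoart2, an aldolase retrogene of germ cells, fell from 18.64 to 19.19 FPKM to 0.07 to 0.24. The fructose transporter gene Slc2a5 fell from 102.8 to 103.92 FPKM to 0.53 to 0.62. Pgk2, Gapdhs, Aldoart2 and Slc2a5 were under 1 FPKM in every knockout library. They were thus tested through their control level alone and had to differ, so their falls are given as a description. The counts of falls above include them, and also Aldoart1 and Slc16a7, with knockout means of 0.073 and 0.127 FPKM, for which the same holds. The counts of rises include Pdk4, with means of 0.39 FPKM in control and 1.53 in knockout, tested through knockout. The counts were not made without such genes and are given as a description. Ldha, which encodes the muscle-type lactate dehydrogenase subunit, fell from 196.98 to 198.2 FPKM to 18.23 to 19.06 (log2 fold change -3.34). Chosen after their values were seen, Ldhb, which encodes the heart-type subunit, rose from 113.88 to 116.88 FPKM to 447.95 to 492.69 (log2 fold change 2.01), Pgk1 from 11.42 to 12.46 to 32.62 to 35.66, and the endothelin gene Edn1 from 29.42 to 31.22 to 188.59 to 195.51.

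In GC2, 52 of these other genes were tested, 3 rose and 16 fell, with a median log2 fold change of -0.17, where 10.7% of all rows were called higher and 13.9% lower. The rises, named after their values were seen, were Eno2, Pgm1 and Mxi1, and the count was 0 without any 1 control library or knockdown library 2, 1 without knockdown library 1 or 3, and 1 with the replicate block. The hypoxia response genes held 12 of the falls and 1 of the rises among 33 tested. Ddit4, a stress-induced inhibitor of mTORC1, was 7.06, 7.43 and 7.56 FPKM in control and 1.1, 1.9 and 2.78 in knockdown (log2 fold change -1.55, SE 0.22, limma adjusted p = 0.00688). P4ha1, the gene of a collagen prolyl hydroxylase subunit, fell from 25.06 to 27.03 FPKM to 13.1 to 15.1, and Lox, the gene of the collagen cross-linking lysyl oxidase, from 15.25 to 19.19 to 8.24 to 9.09. Hmox1, the haem oxygenase gene, fell from 29.23 to 49.4 FPKM to 11.59 to 21.63 (limma adjusted p = 0.0499), and Tmem45a from 2.35 to 3.12 to 0.86 to 1.03. Ldhb fell from 13.35 to 14.54 FPKM to 6.78 to 7.91, Ldha from 252.03 to 256.7 to 212.47 to 221.35, and the transferrin receptor gene Tfrc from 44.61 to 48.35 to 32.93 to 33.62. Of these 8 genes, Ddit4, Hmox1, P4ha1, Ldhb and Tfrc were called higher in knockout spermatocytes, Ldha was called lower, and Lox and Tmem45a were not tested there.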

How the data were processed

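RNA of 12 mouse libraries was sequenced. For each library the authors deposited FPKM values by gene row, rounded to 2 decimals. Per the submitters' processing notes, HISAT2 2.1.0 and DESeq were used and GRCm38 and mm10 are named; the quantifier, annotation release and filters were not given in the sources used here. FPKM has no correction for composition. Depth is not stated, and steps between low values gave no clear estimate; FPKM totals were 194949 to 206711 in GC2 and 289707 to 297362 in spermatocytes.

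Rows without a gene name (2.11% to 3.93% of FPKM in GC2, 0.750% to 0.918% in spermatocytes) were left out. Rows reaching 1 FPKM in at least 3 of 6 libraries were tested with limma 3.58.1 (R 4.3.3), variance trend on, on log2(FPKM + 1), separately for GC2 and spermatocytes. The difference of both contrasts was tested in a joint fit. Isoform ratios were tested by exact permutation, two-sided. The tests were checked on simulated data. Since the deposited unit is FPKM, the count tests provided for were not used.

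The members, lists and tests were chosen with earlier results of these data known. Named genes are all 31, Phb, the 6 other pathway genes called with the largest change and the 2 with the largest control level per contrast, and the top gene of each marker list; genes named in addition were chosen after their values were seen. Promoter windows are from RefSeq (GRCm38.p6), positions from GENCODE M21 (GRCm38). Replicates correlated at Pearson's r of 0.963 to 0.971 in GC2 and 0.990 to 0.991 in spermatocytes, across genes. Alternatives were another pseudocount (0.1), no filter, a mean of at least 5 FPKM, quantile normalization, median centring, rescaling of FPKM to equal library totals without mitochondrial rows, no variance trend, a replicate block, summed rows and each library left out. Python 3.11.15 with pandas 2.3.3, numpy 2.4.6, scipy 1.17.1 and matplotlib 3.10.9 made summaries and figures.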

Additional observations from a re-analysis of the deposited data

Results flagged for a closer look

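The response of 21 genes differed between spermatocytes and GC2 in the joint limma fit. Values are the log2 fold change in spermatocytes minus that in GC2, at an adjusted p under 0.05. The difference was positive for Pfkfb3 (2.43), Pfkl (2.29), Slc16a3 (1.98), Vegfa (1.88), Hif1a (1.60), Aldoa (1.47), Pkm (1.47), Pdk1 (1.40), Bnip3 (1.32), Hk2 (1.30), Slc2a1 (1.03), Slc16a1 (0.77), Eno1 (0.58) and Ankrd37 (0.29). It was negative for Pgam2 (-6.47), Hk1 (-2.72), Pfkp (-2.27), Eno3 (-1.06), Pfkm (-0.99), Pfkfb4 (-0.73) and Egln3 (-0.39). Ankrd37 lost the call in 9 alternative analyses (adjusted p 0.00146 to 0.0853 over all of them), and Egln3 under quantile normalization, median centring and the replicate block (0.00911 to 0.764). Pgam2 was tested in GC2 through its control level alone, on an assembled transcript near 1 FPKM. The rows of Hif1a, Pfkm and Pkm named other genes in spermatocytes than in GC2.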

How the results depend on the processing

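The labels do not say whether the replicate numbers pair the samples. Deviations of same-numbered libraries correlated at 0.124, 0.078 and 0.061 in GC2 and 0.0074, -0.054 and 0.0074 in spermatocytes. Differently numbered libraries correlated at -0.074 to -0.00087 in GC2 and -0.042 to 0.036 in spermatocytes. Deviations were taken from the mean of each group of 3, so these values depend on those of same-numbered libraries and are not separate evidence. In GC2 each library correlated best with its own number. With the replicate block 7 of the 31 genes fell in GC2 and 1985 rows were called in all; 18 rose and 8 fell in spermatocytes, 19 differed between contrasts, and 1 of the other pathway genes rose in GC2.

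Rows called numbered 1640 in GC2 and 7253 in spermatocytes at a mean of at least 5 FPKM, where fewer rows were tested. Genes of the 31 higher in GC2 numbered 1 with quantile normalization and 2 with FPKM rescaled to equal library totals without mitochondrial rows, which took 0.0349% to 0.128% of GC2 FPKM, so that there this setting is mainly the rescaling; other pathway genes higher in GC2 numbered 5 under both, and 0 to 1 without 1 library. Genes of the 31 lower in GC2 numbered 4 to 7 without 1 library. Calls that were higher made up 43.5% in GC2, but 53.6% with quantile normalization, 52.7% with median centring and 57.5% with that rescaling; in spermatocytes 51.6%, 62.0% with quantile normalization and 59.2% with median centring. Quantile normalization moved the median of all spermatocyte rows to 0.28 and median centring to 0.21; the median of the 31 moved to 0.94 and 0.97.

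The GC2 difference in the Hk1 to Hk2 ratio ran from -0.20 to 0.29 without 1 library. Signs turned in GC2, without a call, over the values without 1 library for Slc2a1 (-0.0446 to 0.0862, also -0.0386 and -0.0249), Hk2 (-0.0255 to 0.364), Pgam1 (-0.0429 to 1.14), Egln1 (-0.551 to 0.395, also 0.117 and 0.140), Ankrd37 (-0.125 to 0.0153) and Ndrg1 (-0.196 to 0.557, also -0.152, -0.172 and -0.168), and for Ankrd37 with quantile normalization (0.00523). In spermatocytes they turned for Tpi1 (0.0060, median centring) and Egln3 (0.31, quantile normalization, and 0.079, median centring). The causes were not tested. Among single-gene values under the alternatives, 776 kept direction and call, 40 lost the call, 10 gained it and 17 changed sign.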
